A study of Mus musculus with 2 samples.

Results

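Macrophages with a strong interferon signature were picked out of MC38-OVA tumours as the barcodes richest in 5 interferon-induced transcripts, Ifit1, Ifit2, Ifit3, Rsad2 and Isg15. The base for the choice was every barcode with at least 1 UMI of Ptprc (the gene for CD45), 0 UMIs over the T cell genes Cd3d, Cd3e and Trac, and at least 5 UMIs over C1qa, C1qb, C1qc and Lyz2. Each barcode was scored by its UMIs of the 5 interferon genes per 10000 UMIs, and the 5% of the pooled base with the highest score were the members. This gave 506 members among 10119 barcodes of the base and 18460 barcodes in all. The score cutoff was 23.4. The lowest control and sitagliptin members scored 23.3964 and 23.3987, and the highest barcodes left out 23.245 and 23.2049.

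The 2 libraries came from tumours of mice labelled wild type and bearing MC38-OVA, colon carcinoma cells of mouse origin that make ovalbumin as a model antigen. One group ate a control diet and the other food containing sitagliptin, which inhibits the peptidase DPP4, and the comparison asked how the immune cells of the tumour differed between these diets. Cells were enriched for CD45 by magnetic sorting before droplet single-cell 5' RNA-seq. Each diet has 1 library, and the sources used here do not give the age, sex or number of mice behind it, so no test was possible and no value has a replicate check. Every interval below is a 95% interval for counting error only.

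Type I interferons bind a receptor made of IFNAR1 and IFNAR2, which signals through the kinases JAK1 and TYK2 to a complex that includes STAT2 and IRF9. This complex binds a DNA element in the promoters of antiviral genes and switches on many of them, among them IRF7, which amplifies interferon production, and USP18, which damps the receptor. Interferon gamma, made by T cells and NK cells, signals through its own receptor and favours a partly different set that includes guanylate binding proteins, MHC genes and the chemokine CXCL9. Tumour macrophages respond to both, and macrophages marked by interferon-induced genes recur as a state in many tumours.

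The control library held 4435 barcodes of the base and 228 members, and the sitagliptin library 5684 and 278. The members thus made up 5.14% (4.51 to 5.83) and 4.89% (4.34 to 5.48) of the base, a ratio of 0.951 (0.802 to 1.13), sitagliptin over control. A difference in share was not detectable at this depth. The median score of control members was 39.97 and that of sitagliptin members 40.8, against base medians of 2.16 and 1.73, and the highest scores were 378 and 668. Members were not the barcodes with the most RNA: their median depth was 4892.5 and 5616.5 UMIs, against 5009 and 5669.5 in the rest of the base. UMIs of 3 or more of the 5 genes were seen in 71.9% of control and 83.8% of sitagliptin members, against 4.92% and 4.46% of the rest. All 5 genes were seen in 81 control and 108 sitagliptin members.

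The label of macrophage follows from the rule of the base and suits some members less than others. All 12 macrophage markers were detected in them. The summed level of this list was 10238 and 8702 CPM in members against 12674 and 10770 CPM in the rest (CPM, UMIs per 1000000 UMIs of the barcodes summed). The list includes C1qa, C1qb, C1qc and Lyz2, by which the base was chosen, so their detection was set by the rule and is no support for the label. Fcgr1, the high-affinity IgG receptor, was higher in members in both libraries (ratios 1.94 and 2.20), and Adgre1, the gene for F4/80, was lower (0.638 and 0.624). Of the 12 markers, 2 had a mean log2 ratio above 0. Their median was −0.13, against −0.14 over all genes of at least 10 CPM in the base. Of the 506 members, 20 lay in a cluster of low-UMI barcodes that also carried T cell and NK cell genes, and 25 in a cluster led by Aebp1, Crabp1 and Cavin3 with a median of 16264 UMIs and the highest summed tumour and stromal markers of the 8 clusters (571 CPM). Another 98 lay in the cluster with the highest summed monocyte genes (8802 CPM). Its C1qa level over all its barcodes was 35.0 CPM, against 2004 CPM in the largest cluster. By these genes this cluster is nearer to monocytes. Its members alone had 1440 CPM of Ly6c2 and 2031 CPM of Plac8, against 37.3 and 56.5 CPM in members of the largest cluster. The C1qa level was not taken for members alone. No barcode sequence was shared between libraries among the members, and 132 were shared among all barcodes. T cell markers summed to 22.5 and 17.6 CPM, against 39.7 and 32.0 in the rest, and the dendritic cell list to 60.8 and 38.2 CPM, against 45.2 and 38.2. The plasmacytoid dendritic cell list summed to 131 and 152 CPM, against 112 and 112. Of the B and plasma cell markers, 6 of 7 had 0 UMIs in the members, Cd79a and Ms4a1 among them.

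The 5 genes of the score set the scale of the state. These values chose the members and are given as a description. Rsad2, which encodes the antiviral enzyme viperin, had 1054 CPM in control members and 33.4 CPM in the control rest, and 1379 and 33.0 CPM with sitagliptin. Isg15, a ubiquitin-like modifier, had 2800.4 and 241 CPM, then 3043 and 213 CPM. Ifit2, whose product binds viral RNA, had 639 and 17.3 CPM, and 1024 and 17.6 CPM. Its relatives Ifit1 (256 and 6.31 CPM, then 361 and 6.46 CPM) and Ifit3 (597 and 15.6 CPM, then 661 and 13.2 CPM) had the same pattern. An Isg15 UMI was seen in 99.6% of control and 99.3% of sitagliptin members, and also in 53.9% and 51.8% of the rest. An Ifit1 UMI was seen in 49.6% and 54.0% of members and in 3.64% and 3.79% of the rest.

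The members carried a broad type I interferon program that went far beyond those 5 genes. Of 57 other type I interferon response genes with at least 10 CPM in the base, 54 were at least 1.5-fold higher in members than in the rest in both libraries, with a median log2 ratio of 1.94. Over all 7552 genes at that level, 235 (3.11%) were higher by this rule and 295 (3.91%) were lower, and the median log2 ratio was −0.14. The members were chosen on genes of the same program, so these counts describe the state and carry no test. Of the 235 higher genes, 77 (32.8%) belonged to the interferon or MHC class I lists, and of the 25 genes with the highest ratios 21 belonged to the type I interferon list. The split between higher and lower genes moved with the scaling. With each barcode counted equally it was 249 higher and 642 lower, and with each barcode thinned to 2000 UMIs 251 and 746. The type I list had a median of 1.85 and 1.90 in these cases.

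**Figure D1:**
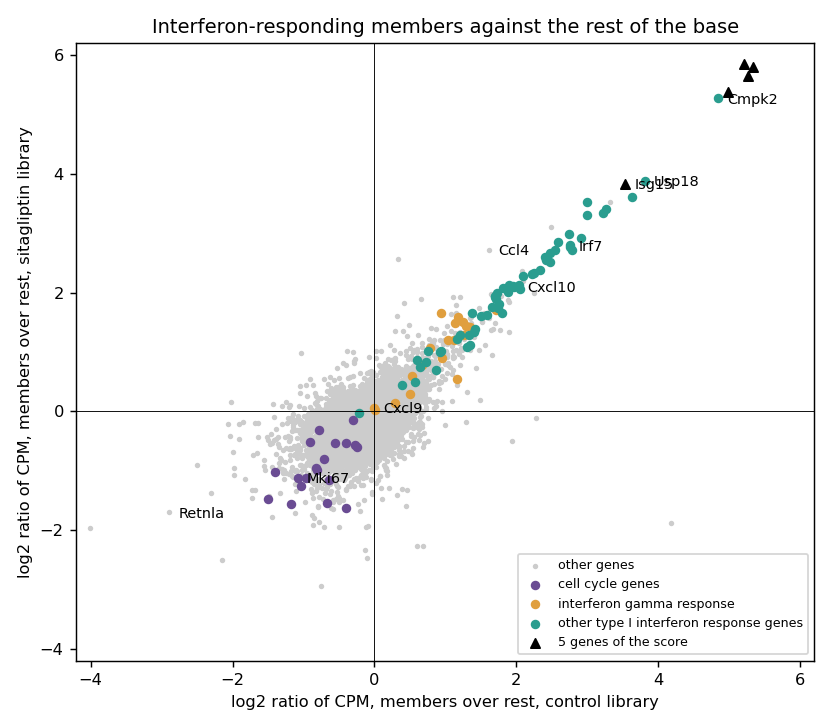
Ratio of summed expression (CPM), members over the rest of the base, in the control library (x axis, log2) and the sitagliptin library (y axis, log2). Each point is a gene of at least 10 CPM in the base. Black triangles are the 5 genes that chose the members, green points the other type I interferon response genes, orange points interferon gamma response genes and purple points cell cycle genes. The green points run along the diagonal up to Cmpk2, with ratios of 28.7 and 38.7, whereas Cxcl9 sits near 0 on both axes.

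Among nucleotide-metabolism and ISG15 genes, Cmpk2 stood first. Cmpk2, a mitochondrial nucleotide kinase whose gene neighbours Rsad2, had 311 CPM in control members and 10.8 CPM in the control rest, and 345 and 8.89 CPM with sitagliptin. The ratios were 28.7 (24.8 to 33.3) and 38.7 (34.0 to 44.1). Usp18, the protease that removes ISG15 from proteins and blocks the type I receptor, had 205 and 14.6 CPM, then 208 and 14.1 CPM (ratios 14.1 and 14.8). Herc6, the mouse ISG15 ligase, had ratios of 5.82 and 6.58. All 3 measured genes of the ISG15 system and all 3 of nucleotide metabolism were past 1.5-fold, Samhd1, which depletes deoxynucleotides, least of these (1.82 and 1.62).

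All 12 measured antiviral effectors were higher in both libraries. Oasl1, which restrains translation of Irf7, had 239.9 CPM in control members and 25.7 CPM in the rest, and 365 and 36.2 CPM with sitagliptin (ratios 9.34 and 10.1). Isg20, an RNA exonuclease, had ratios of 7.97 and 11.6, and Ddx60, an RNA helicase, 7.53 and 7.58. Ifitm3, which hinders viral entry at membranes, was abundant also in the rest (1099 and 861 CPM) and its ratios were 2.24 and 2.33. Of the PYHIN genes, DNA-binding proteins of the nucleus and cytosol, 7 of 7 were higher, with Ifi213 (9.55 and 10.6) and Ifi209 (6.03 and 7.20) among them. Of the Schlafen genes 6 of 6 were higher, from Slfn4 at 12.4 and 12.3 to Slfn2 at 1.52 and 1.82.

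The other genes named among the 25 highest had control ratios of at least 4.24 and sitagliptin ratios of at least 4.96. They were Ifi206, Phf11d, Rtp4, Oasl2, Slfn5, Trim30d, Ifi205, Phf11b, Ddx58, Xaf1, Ms4a4c, Daxx, Slfn1, Ifih1, Irf7 and Il15. The type I genes that did not reach 1.5-fold in both libraries were Ifi27 (0.858 and 0.986), Ms4a6d (1.49 and 1.41) and Ly6e (1.31 and 1.35). Several of these families hold near-identical copies, such as Ifi206 with Ifi213, Phf11b with Phf11d and Ifit3 with Ifit3b. The sources used here do not say how the authors counted reads shared by copies, so the division between copies is uncertain.

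Promoters of the genes that were high together are shown because the type I response acts through a known DNA element. The core of the interferon-stimulated response element, searched as GAAA, any 2 bases and GAAA, and that of the gamma-activated site, TTCNNNGAA, were looked for on both strands, overlapping matches allowed, in the 250 bases before and 50 bases after each gene's start in a RefSeq promoter table of build GRCm38.p6. The sources used here do not give the build behind the deposited counts, and promoters were matched by gene symbol. Below, capitals mark matches, read 5′ to 3′ on the strand of the gene. Ifit1 (chr19:34640639-34640938, plus strand), Rsad2 (chr12:26456403-26456702, minus strand) and Isg15 (chr4:156200769-156201068, minus strand) belong to the score. Ifi206 (chr1:173491269-173491568, minus strand) and Ifi213 (chr1:173599223-173599522, minus strand) were the 2 genes with the highest ratios outside the score that hold a match. Cxcl9 (chr5:92328030-92328329, minus strand) is shown as a chemokine near a ratio of 1, and holds neither motif searched.
Ifit1: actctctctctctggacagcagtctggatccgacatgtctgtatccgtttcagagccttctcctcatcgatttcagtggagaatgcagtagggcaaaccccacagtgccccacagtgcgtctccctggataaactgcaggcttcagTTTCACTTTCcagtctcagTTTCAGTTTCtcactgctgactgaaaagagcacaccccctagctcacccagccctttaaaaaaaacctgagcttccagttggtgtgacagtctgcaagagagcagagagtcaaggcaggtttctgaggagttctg
Rsad2: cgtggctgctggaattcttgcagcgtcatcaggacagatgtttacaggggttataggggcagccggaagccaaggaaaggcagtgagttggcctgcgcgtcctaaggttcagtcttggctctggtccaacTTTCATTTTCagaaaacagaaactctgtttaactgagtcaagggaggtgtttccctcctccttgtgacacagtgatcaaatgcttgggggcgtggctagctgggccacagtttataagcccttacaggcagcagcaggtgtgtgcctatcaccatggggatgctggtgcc
Isg15: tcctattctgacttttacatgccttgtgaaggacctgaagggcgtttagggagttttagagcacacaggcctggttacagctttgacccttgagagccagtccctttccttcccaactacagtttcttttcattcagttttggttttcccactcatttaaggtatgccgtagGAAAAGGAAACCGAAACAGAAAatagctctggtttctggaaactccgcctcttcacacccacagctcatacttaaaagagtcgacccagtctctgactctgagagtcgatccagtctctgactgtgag
Ifi206: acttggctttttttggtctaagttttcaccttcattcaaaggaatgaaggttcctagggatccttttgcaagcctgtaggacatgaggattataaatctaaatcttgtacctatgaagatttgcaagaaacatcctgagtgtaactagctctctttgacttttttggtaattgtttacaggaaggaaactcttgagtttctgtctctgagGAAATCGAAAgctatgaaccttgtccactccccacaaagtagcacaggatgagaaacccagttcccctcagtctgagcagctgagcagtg
Ifi213: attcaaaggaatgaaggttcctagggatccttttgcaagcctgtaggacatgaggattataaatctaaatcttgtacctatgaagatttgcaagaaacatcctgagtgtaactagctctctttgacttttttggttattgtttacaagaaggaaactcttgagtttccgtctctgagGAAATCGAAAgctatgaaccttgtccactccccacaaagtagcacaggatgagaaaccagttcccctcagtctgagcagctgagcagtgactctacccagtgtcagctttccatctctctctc
Cxcl9: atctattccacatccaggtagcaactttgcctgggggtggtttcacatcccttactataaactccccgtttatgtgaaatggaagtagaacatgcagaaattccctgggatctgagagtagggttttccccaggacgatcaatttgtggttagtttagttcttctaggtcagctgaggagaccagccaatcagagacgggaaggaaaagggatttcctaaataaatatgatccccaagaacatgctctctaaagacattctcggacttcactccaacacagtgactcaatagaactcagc

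Ifit1 holds 2 matches, at 104 and 85 bases before the start, both as the reverse complement. Isg15 holds 3 that overlap into one stretch of capitals beginning 78 bases before the start, and Rsad2 holds 1 at 120 bases before it. Of the 235 genes that were higher in members, 192 were in the promoter table and 50 of these (26.04%) held the response element core. The share was 2.59% of the genes that were lower (6 of 232), 4.33% of all measured genes of the base, and 3.44% of all 32851 promoters of this length. Of the 25 named genes 22 were in the table and 9 held it. Those in the table without it included Cmpk2, which had the highest ratios, and Slfn4, Oasl1, Isg20, Phf11d and Irf7. Of the 57 other type I genes measured, 46 were in the table and 17 (37.0%) held it. TTCNNNGAA was held by 13.0% of the higher genes, 8.24% of all measured genes and 8.30% of all promoters. Of the interferon gamma response genes measured, 12 were in the table, of which 7 (58.3%) held the response element core and 6 held TTCNNNGAA. A match describes letters in this window and is no evidence of binding.

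Of 8 measured nucleic acid sensors 4 were past 1.5-fold, and of the 4 interferon receptor genes none. Ifih1, the gene for the RNA sensor MDA5, had 258 CPM in control members against 45.9 in the rest, and 402 against 46.8 in the sitagliptin library (ratios 5.63 and 8.60). Ddx58, the gene for RIG-I, had ratios of 5.41 and 5.88, and Zbp1, which senses nucleic acids in the Z form, 2.77 and 3.36. Tmem173, the gene for the DNA-sensing adaptor STING, stayed at 0.998 and 1.07.

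Of 13 interferon signalling genes, 7 were past the fold. Irf7 had 348 and 51.7 CPM in control members and rest, and 309 and 44.4 CPM with sitagliptin (6.74 and 6.97). Stat2 (3.31 and 3.97) stood above Irf9 (1.65 and 1.79) in ratio. Irf3, which is activated by phosphorylation rather than induced, had 1.01 and 0.522 with few UMIs. The inhibitor Socs1 was at 1.99 and 1.74, and Socs3 at 1.01 and 1.16. The type I receptor genes Ifnar1 (1.17 and 1.12) and Ifnar2 (1.27 and 1.23) and the interferon gamma receptor genes Ifngr1 (0.864 and 0.826) and Ifngr2 (1.08 and 0.943) all lay within 1.5-fold.

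Interferon gamma response genes were also higher in members, by smaller ratios. Of 19 measured, 13 were past the fold, with a median log2 ratio of 1.12. Gbp5, a guanylate binding protein of inflammasome assembly, had 222 CPM in control members and 67.6 in the rest, and 208 and 63.6 CPM with sitagliptin (3.28 and 3.27). Irgm1, a GTPase of pathogen vacuoles, had ratios of 2.54 and 2.68, and Cd274, the gene for PD-L1, 2.04 and 2.30. Acod1, which makes itaconate, was at 2.26 and 3.02, and Nos2, the inducible nitric oxide synthase, at 1.91 and 3.14. Irf1 (1.42 and 1.22) and Ciita (1.23 and 1.11), both transcription factors of the interferon gamma arm, were within 1.5-fold.

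The CXCR3 ligands, which attract T cells and NK cells, differed from each other. Cxcl10 had 948 CPM in control members and 233 in the rest, and 1034 and 242 CPM with sitagliptin, ratios of 4.07 (3.84 to 4.31) and 4.28 (4.08 to 4.48). Cxcl9 had 396 CPM in control members and 396 in the rest, and 541 and 519 CPM with sitagliptin, ratios of 0.999 (0.918 to 1.08) and 1.04 (0.980 to 1.11), or 1.17 and 1.18 with each barcode counted equally. Of 16 chemokines, 4 were past 1.5-fold: Cxcl10, Ccl4, Ccl5 and Ccl12. Ccl4, an inflammatory chemokine, had 1270.04 CPM in control members and 414 in the rest, and 2279 and 347 CPM with sitagliptin (3.06 and 6.58). A few members weigh on this ratio: without the 7 control and 25 sitagliptin members that held an Ifnb1 UMI, described below, Ccl4 in members was at 997 and 1112 CPM. Ccl5 was at 2.21 and 3.47, and the monocyte attractant Ccl12 at 2.15 and 1.87. The neutrophil attractants Cxcl2 (0.770 and 0.857) and Cxcl3 (0.767 and 0.683) were below 1 in both libraries.

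Antigen presentation genes differed less. Of 18 MHC class I presentation genes 4 were past the fold, with a median log2 ratio of 0.42. The non-classical heavy chain H2-T22 had 154 and 68.5 CPM in control members and rest and 146 and 50.6 CPM with sitagliptin (2.25 and 2.87). The peptide transporter gene Tap1 was at 1.58 and 1.71, and the light chain B2m at 1.23 and 1.45. None of 9 MHC class II genes was past the fold, and their median log2 ratio was 0.07. The cytokine gene Il15, which sustains NK cells and CD8 T cells, had 75.3 and 17.8 CPM, then 78.4 and 15.2 CPM (4.24 and 5.15). Cd40, a costimulatory receptor, was at 2.57 and 3.02 and Il18 at 2.28 and 2.23. The IL-1 gene Il1b was at 1.27 and 1.08.

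The score was a continuum, and genes differed in how they followed it. The base was divided into barcodes with a score of 0, those up to the median, up to 80%, up to 95%, and the members. Irf7 went from 25.5 CPM at score 0 through 63.6 and 132 CPM to 348 CPM in control members, and from 18.5 through 57.3 and 131.5 to 309 CPM with sitagliptin. Gbp2, a guanylate binding protein, had 819.6 CPM in the bin below the members and 807 CPM in control members, with 733 and 847 CPM with sitagliptin. Cxcl9 had its highest level outside the members in both libraries. It reached 500.4 CPM in the bin below them against 396 CPM in control members, and 715 CPM in the third bin against 541 CPM in sitagliptin members. The cell cycle gene Mki67 was highest in the second bin (205 and 185 CPM) and lowest in the members (71.4 and 64.2 CPM). The bins also differ in depth, with medians of 10047 and 11267 UMIs in the second bin and 3757 and 3950 in the fourth, and the part of depth in these levels was not tested.

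**Figure D2:**
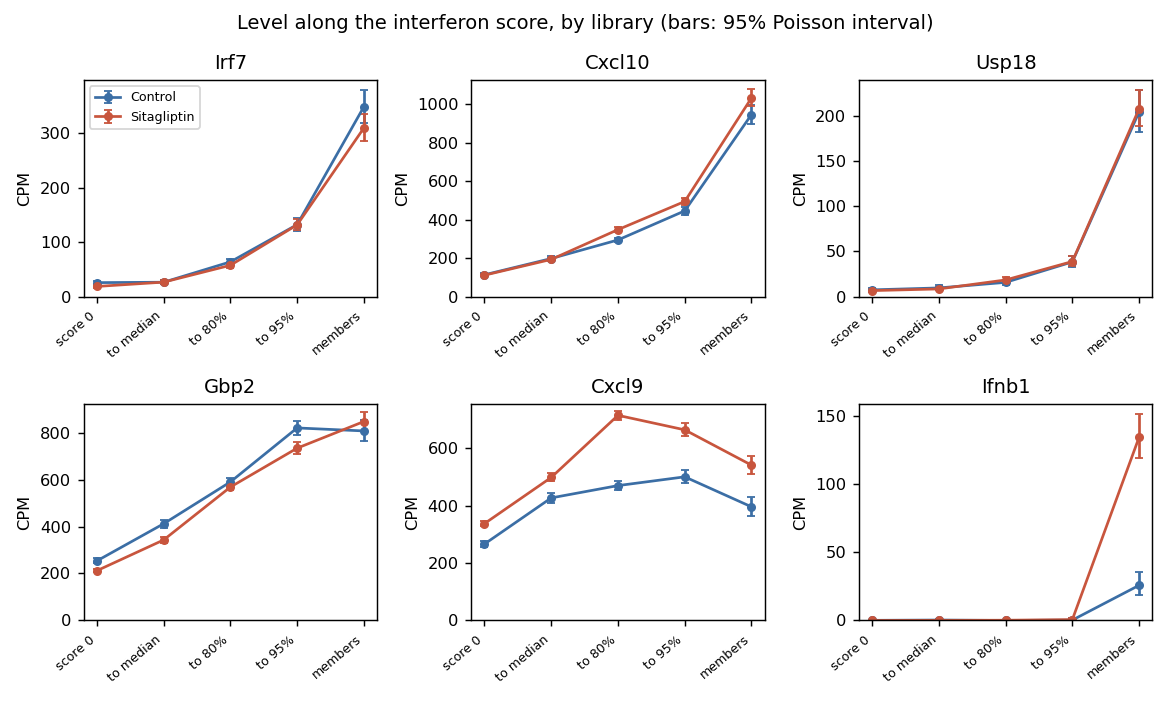
Level (CPM, linear axes from 0) of 6 genes in 5 bins of the interferon score, from score 0 to the members. Blue is the control library, red the sitagliptin library, and bars are 95% Poisson intervals. Irf7 and Cxcl10 climb to the members, Gbp2 is level from the fourth bin in the control library and higher in the members with sitagliptin, Cxcl9 is highest before the members, and Ifnb1 is near 0 until the members, where it is at 25.8 CPM (control) and 134 CPM (sitagliptin).

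The order of CPM over these 5 bins in both libraries (10 points) had the highest Spearman rho that the bins allow, 0.985, for 29 of 7280 genes. These 29 cannot be ranked among themselves by this measure. The 10 of them with the highest ratio of members over rest were Usp18, Phf11d, Rtp4, Irf7, Herc6, Xaf1, Il15, Cxcl10, Parp14 and Samd9l. The points share libraries and the cells that defined the bins, so this describes likeness only.

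Of 19 cell cycle genes 11 were at least 1.5-fold lower in both libraries and none was higher, with a median log2 ratio of −0.91. Mki67 had 71.4 CPM in control members and 151 in the rest, and 64.2 and 140 CPM with sitagliptin (0.472 and 0.460). Top2a, the topoisomerase of chromosome separation, was at 0.380 and 0.495. Among the 10 lowest genes were the mitotic kinase gene Plk1 (0.225 and 0.175), Sgo2a (0.594 and 0.129), Cdca3 (0.303 and 0.400) and the histone genes Hist1h1a (0.367 and 0.292) and Hist1h2ai. Gzmf, a granzyme of NK cells and T cells, led them with 2 UMIs in the members of each library, and the others were Ppp2r5d, Pald1, B3gnt7 and Retnla. Retnla, a gene of alternative activation, had 11.2 CPM in control members and 83.3 in the rest, and 34.8 and 113 CPM with sitagliptin (0.135 and 0.308). With the score cutoff at 10% of the base its mean log2 ratio was 0.29, above 0, so its direction depends on the cutoff.

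The macrophage state lists differed in how many genes were past 1.5-fold, beside 3.11% of all genes higher and 3.91% lower. Of 12 monocyte genes 4 were higher and 1 lower, with a median log2 ratio of 0.67. Ly6c2, the surface marker of classical monocytes, had 272 CPM in control members and 87.4 in the rest, and 410 and 104 CPM with sitagliptin (3.11 and 3.94). Plac8 was at 3.24 and 2.80, whereas Fn1 was lower (0.637 and 0.552). Ly6c genes can themselves be induced by interferon. Of 8 resident-like macrophage genes none was higher and 1, Fcrls, was lower (0.571 and 0.407), with a median of −0.58. Gpnmb (3.17 and 2.62) and the lipid droplet gene Plin2 (1.92 and 2.03) were the higher ones among 15 lipid-associated genes, and the lipase gene Lpl was lower. Of 11 inflammatory macrophage genes 3 were higher and none lower, with a median of 0.23. Glycolysis and hypoxia genes held no gene past the fold among 18. The complement genes C1qa (0.703 and 0.709) and C1qc (0.707 and 0.703) and the lysozyme gene Lyz2 (0.725 and 0.726) were lower in members by like ratios in both libraries.

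Clustering of the base without the interferon and chemokine lists gave 8 clusters, numbered from 0, and members lay in all of them. At the resolution used the share of members was highest in cluster 3, which carried the monocyte genes Plac8, Ly6c2, Chil3 and Hp: 36 of 323 control barcodes (11.1%, 7.93 to 15.1) and 62 of 584 sitagliptin barcodes (10.6%, 8.24 to 13.4). Cluster 2, with Ly6i, Il1r2 and MHC class II genes, had 9.05% (7.25 to 11.1) and 6.90% (5.39 to 8.68), which overlaps the interval of cluster 3 in both libraries, and cluster 4, with Cxcl3, Inhba and Mmp13, had 6.44% and 8.53%. Cluster 0, with Folr2, Ms4a7, Pf4, Apoe and high C1q genes, had 4.33% (3.26 to 5.63) and 4.87% (3.89 to 6.02). It was the largest and held 134 members. Cycling cluster 5 had 1.29% and 2.82%, and cluster 7, with Retnla, Lyz1 and Ear2, 3.23% and 3.56%. Cluster 6, led by tumour genes, held 7.92% (4.83 to 12.1) and 3.77% (1.40 to 8.03), and cluster 1, the low-UMI mixture, 0.905% and 0.820%. At the finer resolution of 1 the order turned. The cluster with Ly6i, Cfb and MHC class II genes then had 12.9% and 9.39% members (11.1% over both libraries) and the one with the monocyte genes 11.2% and 10.6% (10.8%). Clusters are called by number because several of them mix macrophage genes with those of other cells.

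**Figure D3:**
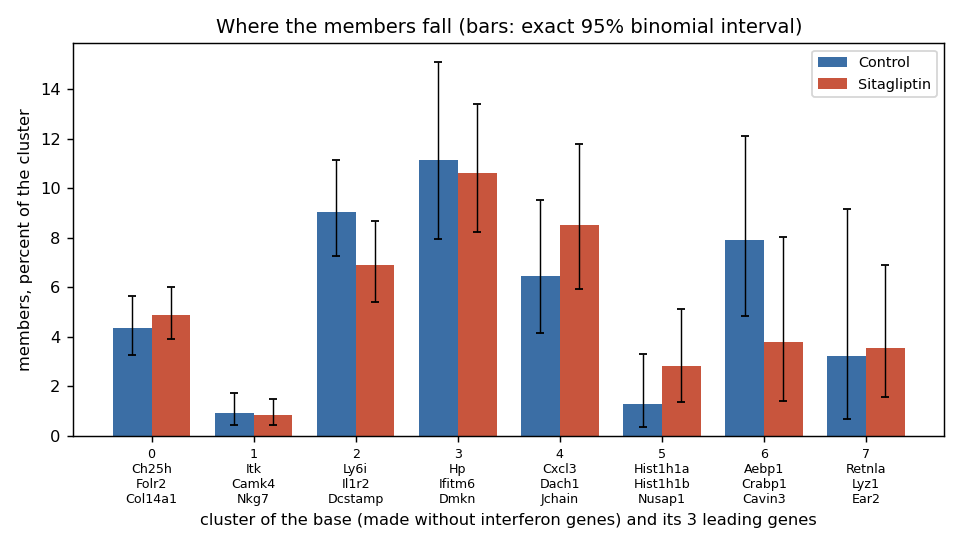
Members as a percent of each cluster (y axis, linear from 0) in the control (blue) and sitagliptin (red) libraries, with exact 95% binomial intervals. The x axis names each cluster with its 3 leading genes. Cluster 3, with the monocyte genes, is highest in both libraries at 11.1% and 10.6% at this resolution, and clusters 1 and 5 are lowest.

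The type I genes were higher in members within single clusters too. In clusters 0, 2, 3 and 4 the type I list had median log2 ratios, members over the rest of the same cluster, of 1.20, 1.68, 1.12 and 2.09 over genes of at least 50 CPM. The number past 1.5-fold was 22 of 27, 32 of 35, 37 of 46 and 38 of 39, with both libraries summed. Over all genes at that level 4.84%, 4.68%, 6.78% and 7.21% were past it. Cmpk2 had ratios of 68.9, 21.0, 27.7 and 39.7. Of the cell cycle list 5, 5, 3 and 5 genes reached this level. Their medians were −0.56, −0.09, −0.08 and −0.10 within the clusters, and −0.49, −0.49, −0.48 and −0.49 for the same genes over the whole base. Of the monocyte list 4, 9, 12 and 9 genes did, with medians of −0.59, 0.20, −0.09 and 0.08 within the clusters and 0.10, 0.66, 0.65 and 0.66 over the base. Ly6c2 itself stayed higher in each (1.79, 2.37, 1.74 and 6.04). Cxcl9 went in both directions: it was lower in members of cluster 0 (0.570, 0.510 to 0.636) and of cluster 4 (0.573), and higher in those of cluster 2 (1.35) and cluster 3 (1.34). These values were added after the clusters had been seen.

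Most UMIs of Ifnb1, the gene for interferon beta, lay in members. This gene was singled out after its values were seen. The files hold 361 Ifnb1 UMIs in all barcodes, of which 313 (86.7%) lay in 32 members. In the base, 96.9% of Ifnb1 UMIs were in members. The other 10 barcodes of the base with the gene had 1 UMI each. Ifnb1 was not part of the score. The share of members with an Ifnb1 UMI was 7 of 228 (3.07%, 1.24 to 6.22) among control members and 25 of 278 (8.99%, 5.90 to 13.0) among sitagliptin members. In the rest it was 0.0951% and 0.111%, the share to set beside these as background, at median depths of 5009 and 5669.5 UMIs. The level in members was 25.8 and 134 CPM, against 0.146 and 0.150 CPM in the rest. Of 21 interferon genes in the files, 18 had 0 UMIs in the members. Besides Ifnb1 there was 1 UMI of Ifna13, and 1 and 2 UMIs of Ifng.

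The Ifnb1-holding members scored high. Their median score was 144, against 38.8 in the other members, and 17 of the 50 highest scores belonged to them. The 7 control barcodes carried 14, 14, 4, 3, 2, 1 and 1 UMIs. In the sitagliptin library the highest carried 52 and the median 7. They were deeper than the other members, with median depths of 6231 and 8372 UMIs against 4867 and 5357. After thinning each barcode to 2000 UMIs, 5 control and 17 sitagliptin members kept an Ifnb1 UMI (2.19% and 6.12%).

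**Figure D4:**
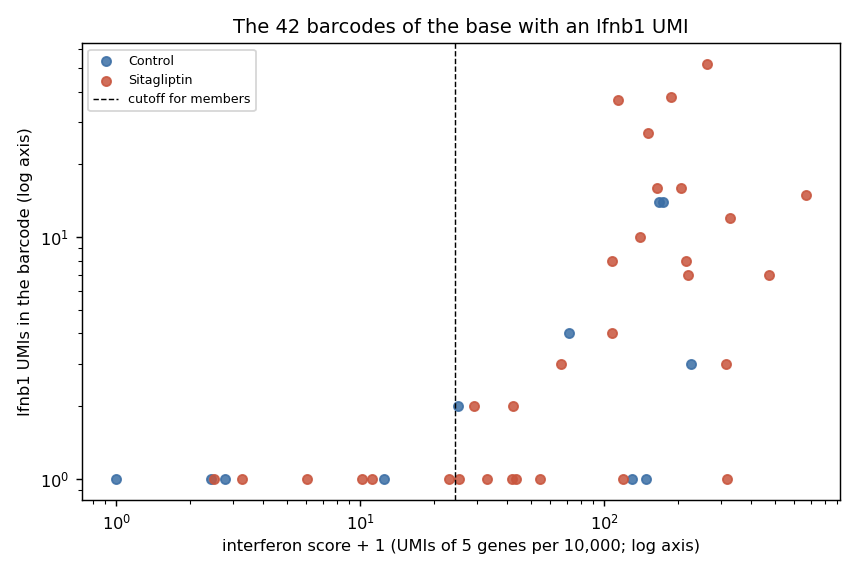
Ifnb1 UMIs (y axis, log scale) against the interferon score plus 1 (x axis, log scale) for every barcode of the base with an Ifnb1 UMI, control in blue and sitagliptin in red. The dashed line is the cutoff for members. All barcodes left of the line have 1 UMI, and all those with 2 or more, up to 52, lie right of it.

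The members with Ifnb1 had higher levels of some inflammatory mediators than the other members, and lower levels of others. Over 1588 genes of at least 100 CPM, 97 (6.11%) were at least 1.5-fold higher in both libraries and 320 (20.2%) lower. Of 10 inflammatory macrophage genes 1, Mmp12, was higher and 2, Il1b and Cxcl1, were lower, with a median log2 ratio of −0.68. Ccl4 had 9788 CPM in control holders and 997 in the other control members, and 12164 and 1112 CPM with sitagliptin (9.82 and 10.9). Tnf, the gene for the cytokine TNF, had 511 and 75.7 CPM, then 826 and 91.5 CPM (6.75 and 9.03). The level of 100 CPM was taken over holders and other members together. Tnf and the heat shock gene Hspa1a were below it in the other members of both libraries. They reached it through the holders, where they were high. Ccl5 (9.26 and 4.97), Ccl3 (7.09 and 5.51), the stress phosphatase subunit Ppp1r15a (4.44 and 7.29), the heme oxygenase gene Hmox1 (11.0 and 6.68) and Peli1, a ubiquitin ligase of Toll-like receptor signalling (6.70 and 5.35), were among the highest. Holders rest on 7 control barcodes, so the control values carry wide error.

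All 5 genes of the score were higher in holders, which their higher scores entail, Ifit1 most (4.11 and 5.54). Of 48 other type I genes, 1 was higher, Oasl1 (5.33 and 3.98), and 6 were lower, with a median log2 ratio of −0.28. Over all genes of this comparison the shares were 6.11% and 20.2%, so these counts are no excess in either direction. Ifih1 was higher (3.36 and 4.31). Ifnar1 was lower (0.249 and 0.533). Of 7 MHC class II genes 5 were lower, among them H2-Aa (0.198 and 0.328), and of 9 monocyte genes 6 were lower. Ly6c2 and Plac8 had 0 UMIs in the control holders, and in the sitagliptin library their ratios were 0.229 and 0.177. Hist1h1b, Hist1h2ae, Cytip, Cald1, Il1b, Il1r2 and Trps1 were the other lowest genes, each with 1 to 3 UMIs in the control holders. In the sitagliptin holders Il1b had 385 UMIs and a ratio of 0.631, and Trps1 was at 0.416. The others of this list were at 0.182 or lower there.

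Cluster 0 held 26 of the 32 holders, so the comparison was repeated within it, 26 holders against 108 other members with both libraries summed and median depths of 8348.5 and 8772.5 UMIs. Tnf had 777 CPM in holders and 69.9 in the others, a ratio of 11.1 (8.31 to 15.02). It was below the level of 100 CPM in the others and reached it through the holders. Of 48 other type I genes 5 were past 1.5-fold higher and 11 lower, beside 8.75% and 23.6% of all genes. Of 9 inflammatory macrophage genes 0 were higher by this fold and 5 lower, with a median log2 ratio of −0.59. Ccl5 was at 7.84 (6.68 to 9.21), Ccl4 at 7.31 (6.88 to 7.77), the heat shock gene Hspa1a at 7.35, Ppp1r15a at 6.68, Oasl1 at 4.49 and Ifih1 at 3.73. Cxcl10 was at 3.05 (2.72 to 3.43), while Cxcl9 was at 0.999 (0.748 to 1.32). Irf7 (0.709, 0.516 to 0.957) and the myeloid gene Slfn4 (0.332) were lower, and Usp18 was at 1.02 (0.741 to 1.38). H2-Aa was at 0.445 and Ifnar1 at 0.362. Of members in cluster 0, 13.2% of 53 control barcodes and 23.5% of 81 sitagliptin barcodes held Ifnb1. Of the monocyte list 2 genes reached the level tested, both lower.

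Between the libraries, the other type I interferon genes were at nearly the same level in members. Members of both libraries passed the same cutoff on genes of this program, so this likeness is in part set by the choice. Of 63 other type I genes with at least 25 CPM in members, 35 were higher in the sitagliptin library and 28 lower, with a median log2 ratio of 0.01, sitagliptin over control. In the rest of the base the median was −0.05. With each barcode counted equally these medians were 0.10 and −0.04. One gene, Oasl1, was past 1.5-fold higher (1.52 in members and 1.41 in the rest), and 1, Ifi44, past 1.5-fold lower (0.528 and 0.793). Over 4837 genes at this level, 115 (2.38%) were higher in the sitagliptin members by the fold and 238 (4.92%) lower, with median log2 ratios over these genes of −0.08 in members and −0.07 in the rest. Irf7 was at 0.888 (0.790 to 0.999), Usp18 at 1.02 (0.876 to 1.18) and Cmpk2 at 1.11 (0.984 to 1.25).

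The genes of the score chose the members, so their ratios between the libraries are a description only. Ifit2 was at 1.60, Ifit1 at 1.41, Rsad2 at 1.31, Ifit3 at 1.11 and Isg15 at 1.09. With barcodes thinned to 2000 UMIs Isg15 turned to 0.996, and the other 4 stayed above 1. Outside the score, Ifih1 was at 1.56 (1.38 to 1.76) in members and 1.02 in the rest. Without the Ifnb1-holding members, an alternative added after seeing the data, Ifit2 was at 1.42, Rsad2 at 1.16, Ifih1 at 1.24 and Oasl1 at 1.31.

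Ifnb1 had the highest ratio between the libraries in members after Zbed5. Its CPM ratio was 5.21 (3.72 to 7.49), and the ratio of the share of members with a UMI was 2.93 (1.29 to 6.65), or 2.79 (1.04 to 7.44) after thinning. In the rest the CPM ratio was 1.03 (0.244 to 4.96). Without the barcode that held 52 UMIs the sitagliptin level was 109 CPM. The ratio was 2.99 with each barcode counted equally and 3.10 after thinning. It was 2.10 when barcodes with 2 or more UMIs summed over the markers of another cell type were left out. Over all settings that kept the holders it lay between 2.10 and 7.11. With 32 barcodes and 1 library per diet, the difference compares these libraries and not the diets.

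Some of the genes that were high in the holders were past 1.5-fold in the sitagliptin members as a whole and others were not. Ccl4 had 1270.04 and 2279 CPM (1.79, 1.70 to 1.89), Tnf 89.2 and 169 CPM (1.90, 1.55 to 2.33) and Hspa1a 46.3 and 147 CPM (3.18, 2.44 to 4.18), against 0.836, 0.975 and 1.35 in the rest. Hspa1b was at 3.71 (2.54 to 5.57), and 1 barcode carried 33.9% of its UMIs in sitagliptin members. Ccl5 was at 1.20, Ppp1r15a at 1.14 and Peli1 at 1.39, within 1.5-fold. Without the holders Ccl4 was at 1.12, Tnf at 1.21, Hspa1a at 1.66 and Hspa1b at 1.74. With each barcode counted equally Ccl4 was at 1.31. Other genes of the 8 highest were the fatty acid binding protein gene Fabp4 (16.5 and 67.1 CPM, 4.06), Rnd3 (2.94), Gzma (2.71) and Bhlhe41 (2.35). The level of 25 CPM was taken over the members of both libraries together. Fabp4, Rnd3, Gzma, Bhlhe41, Hspa1b and Zbed5 were below it in control members and reached it through the sitagliptin library, where they were high. In the sitagliptin library 31 members held a Fabp4 UMI, and 1 of them carried 27.7% of its UMIs. Zbed5 had 3 UMIs in control members and 222 in sitagliptin members, and its ratio of 54.9 (18.5 to 268) in members stood beside 96.1 in the rest.

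**Figure D5:**
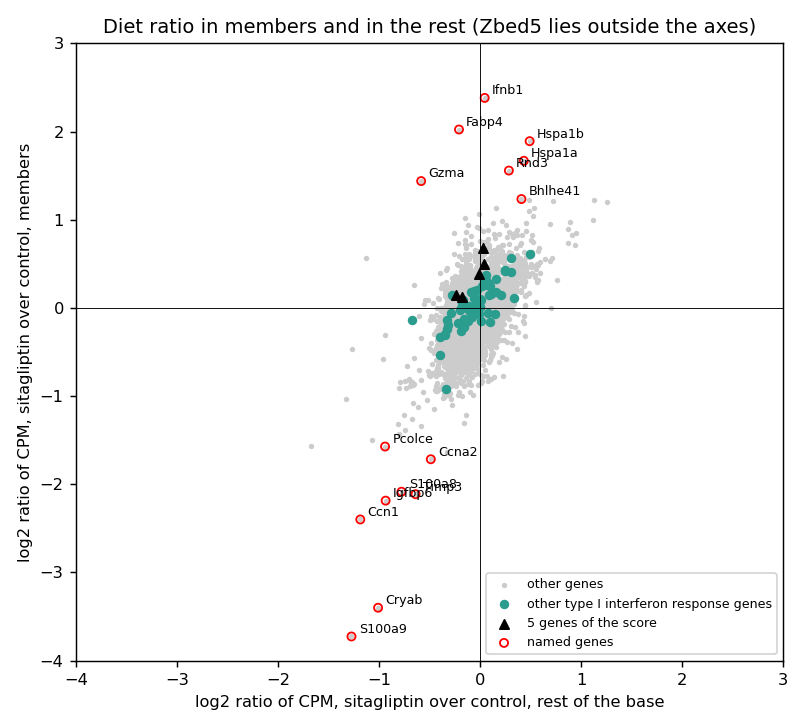
Ratio of CPM, sitagliptin over control, in the rest of the base (x axis, log2) and in the members (y axis, log2) for genes of at least 25 CPM in members. Green points are other type I interferon response genes, black triangles the 5 genes of the score and red rings the named genes. The green points lie around 0, with a median of 0.01 in members, and Ifnb1 stands highest within the axes at 5.21-fold, with Zbed5 beyond them.

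The 8 lowest genes in the sitagliptin members included neutrophil genes and genes of stroma or tumour cells. S100a9 had 71.4 and 5.39 CPM (0.0755, 0.0366 to 0.141) and S100a8 156 and 36.8 CPM (0.236, 0.179 to 0.307), both abundant neutrophil genes, with ratios of 0.413 and 0.582 in the rest. In control members S100a9 was seen in 15 barcodes, and 1 barcode carried 40 of its 108 UMIs. S100a8 was seen in 24, and 1 barcode carried 61 of its 236 UMIs. The neutrophil list of 7 genes summed to 257 CPM in control members, 59.3 in sitagliptin members, and 89.1 and 49.3 CPM in the rest, with Ngp at 0 UMIs in the members. Cryab (0.0947), Ccn1 (0.190), Igfbp6 (0.220), Timp3 (0.231) and Pcolce (0.336), which stroma or tumour cells express, were also low, as was the cyclin gene Ccna2 (0.304). The minimum level for this comparison was taken over the members of both libraries together. Of the 8 lowest genes, all but S100a8 were below it in sitagliptin members. They reached it through the control library, where they were high. Cluster 6, led by tumour genes, carried 90 of the 94 Cryab UMIs, 87 of 90 Ccn1 UMIs and 70 of 75 Pcolce UMIs of the control members. This cluster held 19 of 228 control members and 6 of 278 sitagliptin members. The 10 tumour and stromal markers summed to 183 and 88.7 CPM in members and 136 and 99.998 CPM in the rest, with 5 of them, Krt8 among these, at 0 UMIs in members. Without clusters 1 and 6 Ccn1 was at 0.655, Igfbp6 at 0.982 and Pcolce at 1.31, with S100a9 at 0.0252. Another setting left out barcodes with 2 or more UMIs summed over the markers of another cell type, and chose the members again. There S100a9 was at 0.810, S100a8 at 1.89, Ccn1 at 1.62 and Gzma at 0.810. S100a8, S100a9 and Gzma are among those markers, so the filter itself limits their UMIs and their direction cannot be read from it. Ccn1 is not among them, and its direction depends on this setting.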

How the data were processed

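The 2 libraries were read from matrices deposited by the authors, which hold a raw UMI count for each gene in each barcode. The sources used here do not name the aligner, counting program, genome build or annotation. Every deposited barcode has at least 2001 UMIs, a floor that can leave out small cells. Total counts were 64139749 UMIs over 8694 control barcodes and 76788699 over 9766 sitagliptin barcodes.

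Counts of genes that share a symbol were summed, which took 32285 gene IDs to 32245 symbols. Groups came from the treatment label. The members and lists were chosen with earlier results of these data known. UMIs were summed per library over members and over the rest, scaled to CPM, and compared as ratios with exact conditional binomial intervals. Shares have Clopper-Pearson intervals and their ratio a Katz interval. A sum of 0 was replaced by a floor of 3 counts. A gene was counted as higher or lower when its ratio was at least 1.5, or its inverse, in both libraries. No test was run, since each diet has 1 library.

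Genes named were the 25 highest and 10 lowest ratios of members over rest at 10 CPM or more in the base, and the 8 highest and 8 lowest ratios between libraries at 25 CPM or more in members, leaving out antigen receptor, ribosomal protein, haemoglobin and mitochondrial genes, Y-linked genes, Xist, Tsix, and symbols with Gm or Rik, plus genes of the lists. Levels in members were taken over both libraries together, so a gene could reach them through 1 library alone. Ifnb1-holding members were compared at 100 CPM or more over holders and other members together. A gene could reach this level through the holders, or through the other members, alone. Clusters used 2000 variable genes without the interferon and chemokine lists, 30 principal components, 15 neighbours and Leiden at resolution 0.5. Scrublet's automatic threshold marked 0% of barcodes in both libraries and so did not work. All barcodes were kept, and removing the 6% with the highest scores was an alternative. Python 3.11.15, scanpy 1.11.5, leidenalg 0.10.2, numpy 2.4.6 and scipy 1.17.1 were used. The comparison was tested on simulated data. Other alternatives changed the score cutoff, the score, the base, the scaling and the filter on low levels.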

Additional observations from a re-analysis of the deposited data

Results flagged for a closer look

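Gzma, a granzyme gene of NK cells and T cells, had opposite ratios in the libraries. It was lower in members than in the rest in the control library (17.2 and 35.2 CPM, ratio 0.488, 0.317 to 0.719) and higher in the sitagliptin library (46.6 and 23.5 CPM, ratio 1.98, 1.59 to 2.45). The difference between the libraries was not tested. The UMIs came from 7 control members and 8 sitagliptin members, and 1 barcode carried 65.4% and 36.8% of them. NK cell markers, 7 genes with none at 0, summed to 58.1 CPM in control members and 143.5 in the rest, and to 92.1 and 77.1 CPM with sitagliptin. Their part in the result was not tested.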

How the results depend on the processing

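All 25 genes named as highest in members stayed at least 1.5-fold higher in each of 400 alternative values, with a lowest mean ratio of 3.41. Settings that changed only the filter on low levels repeat the main values among these. Every setting chose the members by interferon genes, so this steadiness is a description and no independent support. The ratio of the members' share lay between 0.916 and 1.12 over the settings that changed the members or the base. The counts of genes past 1.5-fold moved more, and the cause was not tested. With 2% of the base as members 1010 genes were lower, the type I median was 2.26, and 361 and 585 genes were higher and lower between libraries. With 10% that median was 1.65, and 56 and 128 genes differed between libraries. Without barcodes with markers of other cells, 713 genes were lower in members, and 263 and 422 were higher and lower between libraries. Counted equally, barcodes gave 642 lower genes, and thinned ones 746, with 315 and 544 between libraries. Barcodes of at least 5000 UMIs gave 369 genes lower in the sitagliptin members. At a filter of 2 CPM, 359 and 654 genes were higher and lower in members. At 50 CPM there were 96 and 49, with a type I median of 1.39. Between libraries, 10 CPM gave 266 and 648, and 100 CPM gave 29 and 20.

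Directions that turned, on the log2 scale, were Cryab between libraries with 2% of the base (0.41), Retnla in members with 10% (0.29), Gzma (−0.30), Ccn1 (0.70) and S100a8 (0.92) between libraries without barcodes with markers of other cells, and Pcolce (0.39) without clusters 1 and 6, the last added after seeing the data. Gzma and S100a8 are themselves among the markers of other cells, so that filter limits their own UMIs. The cause of these turns was not tested either. No paired analysis was possible because each diet has 1 library. Depth limits the values for Ifnb1 holders, whose control side rests on 7 barcodes.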
